A study of Mus musculus with 830 samples.

Results

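Transcripts of 46 genes of Wnt signalling were followed in single cells of the early mouse endoderm. They comprised 19 Wnt ligands, 10 frizzled receptors (Fzd), 4 secreted frizzled-related proteins (Sfrp), 4 Dickkopf antagonists (Dkk) and 9 genes that are known as targets or feedback regulators of the pathway (Axin2, Lef1, Tcf7, Lgr5, Nkd1, Sp5, Notum, Rnf43 and Znrf3). The first 4 groups were taken by symbol from the 26313 genes of the table of read counts, leaving out names that end in os, and the last group by name. The 830 cells came from embryos of the cross C57BL/6XC3H, were stained for the epithelial surface protein EpCAM, sorted, and sequenced with Smart-seq3xpress, a plate-based method that gives reads along the whole transcript. HM cells had the genotype Ngn3-GFP/GFP, with the green fluorescent protein reporter on both alleles of Neurog3 (Ngn3), the factor that starts endocrine differentiation, and came from embryos of 15, 18, 21, 24 and 27 somites (171 cells). Ngn3Cre cells had the genotype Ngn3-Cre; Ai6, in which a Cre recombinase under Neurog3 control switches on a lasting fluorescent reporter, and came from embryos of 18, 21, 24 and 27 somites (333 cells). HZ cells had the genotype Ngn3-GFP/+, with the reporter on 1 allele, and came from embryos of 15 to 27 somites (326 cells). The labels do not say whether the sort also gated on these reporters, and they name no embryos.

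Wnt proteins are lipid-modified secreted signals that bind frizzled receptors together with Lrp5 or Lrp6, which stabilises beta-catenin and lets it act with Tcf and Lef factors on target genes. Some ligands, Wnt5a among them, also act through Ror2 and other receptors on cell polarity without beta-catenin. Sfrp proteins bind Wnts outside the cell, Dkk1 blocks the Lrp co-receptors, and Axin2, Notum, Rnf43 and Znrf3 damp the pathway that induces them. In the gut tube, Wnt activity is known for posterior patterning of the endoderm and for roles in pancreas and liver formation.

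The stretch just upstream of the transcript start is where a Tcf or Lef factor could act on a member of the pathway itself, so upstream sequences are shown for 3 members whose window holds the core motif of these factors and for the receptor Fzd7, whose window does not. All 4 are 250 bases read 5′ to 3′ towards the start, from RefSeq on GRCm38.p6, with the motif in capitals (CTTTGAT or CTTTGAA, searched on both strands). Sp5, a zinc finger factor known as a direct target, lies at chr2:70474673-70474922 on the plus strand with its match 104 bases before the start. Dkk1 lies at chr19:30549497-30549746 on the minus strand with its match 117 bases before the RefSeq start. GENCODE vM21 starts Dkk1 at 30549665, inside this window, so by that annotation the match lies after the start. A start of Wnt5b, a noncanonical ligand, lies at chr6:119449387-119449636 on the minus strand with its match 71 bases before it. Fzd7 lies at chr1:59481897-59482146 on the plus strand.
Sp5: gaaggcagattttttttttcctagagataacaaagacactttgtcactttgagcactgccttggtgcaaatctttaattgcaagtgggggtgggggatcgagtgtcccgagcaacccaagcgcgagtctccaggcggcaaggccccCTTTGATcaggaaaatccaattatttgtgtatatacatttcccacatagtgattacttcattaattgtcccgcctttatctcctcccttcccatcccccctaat
Dkk1: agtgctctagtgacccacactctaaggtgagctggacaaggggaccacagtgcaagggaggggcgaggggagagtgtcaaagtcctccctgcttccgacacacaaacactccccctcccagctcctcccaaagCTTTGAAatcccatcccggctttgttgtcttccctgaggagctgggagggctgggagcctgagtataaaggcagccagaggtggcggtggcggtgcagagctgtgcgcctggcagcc
Wnt5b: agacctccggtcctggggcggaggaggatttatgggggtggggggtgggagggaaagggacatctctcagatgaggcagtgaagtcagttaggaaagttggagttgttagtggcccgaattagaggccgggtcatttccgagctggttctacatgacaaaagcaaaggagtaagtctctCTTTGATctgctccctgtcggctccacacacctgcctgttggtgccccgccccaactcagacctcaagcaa
Fzd7: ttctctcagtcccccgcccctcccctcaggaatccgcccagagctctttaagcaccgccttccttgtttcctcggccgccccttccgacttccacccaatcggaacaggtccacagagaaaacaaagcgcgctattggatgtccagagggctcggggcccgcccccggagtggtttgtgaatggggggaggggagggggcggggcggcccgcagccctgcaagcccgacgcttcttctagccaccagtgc
RefSeq windows of 300 bases (250 before to 50 after a start) were found for 31 of the 46 genes, 39 windows in all. The motif was in 4 of these 39 windows (10.3%; the other one belongs to Wnt11), against 2842 of 32851 windows of all genes (8.65%), so a match was about as common here as elsewhere. A match is a run of letters and does not show that a factor binds there.

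Cells of 1 genotype and stage were pooled by adding up their reads. The 11 pools of 16 to 155 cells (8299225 to 70763553 reads) entered the tests, while 3 pools of 3 to 5 cells (HM at 27, Ngn3Cre at 18 and HZ at 15 somites) did not. Levels below are CPM, a gene's share of the reads in its pool in the usual unit, without further scaling, and n counts pools. Neurog3 itself had 9.40, 8.41, 5.95 and 11.5 CPM in HM at 15, 18, 21 and 24 somites, and 557, 153 and 201 CPM in Ngn3Cre at 21, 24 and 27 somites, against 130, 133, 90.0 and 81.1 CPM in HZ at 18, 21, 24 and 27 somites. It was lower in HM than in HZ by edgeR's quasi-likelihood test (log2 fold change -3.69 ± 0.45 SE, adjusted p = 0.00735). Cell makeup moved with genotype. Endocrine-like cells, named from markers after clustering without the 46 genes, made up at most 2.50% of the cells of an HM pool and 61.9% to 82.1% of a Ngn3Cre pool, against 18.0% to 58.8% of an HZ pool. A further cluster of 41 cells with few reads held 0 HM, 29 Ngn3Cre and 12 HZ cells. It had all 14 endocrine markers at 10 CPM or more, 6 of them raised at least 2.0-fold over the other cells. It was left unnamed and out of these shares. The summed level of 14 endocrine markers was 67.5 to 591 CPM in HM and 16168 to 27122 CPM in Ngn3Cre, against 1090 to 17099 CPM in HZ. That of 10 pancreatic progenitor markers was 361 to 471 CPM in HM and 112 to 127 CPM in Ngn3Cre, against 84.1 to 449 CPM in HZ. The part of this makeup in the differences between genotypes below was not tested except where values within a class of cells are given. In pools, fewer cells of a type and less RNA per cell cannot be told apart.

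Wnt pathway transcripts were sparse. The 46 genes together took 270224 reads, 0.0652% of all reads. Wnt10b had no read in any cell, 22 genes stayed under 10 CPM in every one of the 11 pools, and 4 genes (Fzd2, Fzd3, Sfrp5 and Znrf3) were at 10 CPM or more in all of them. edgeR's filter on low counts kept 38 genes and left out Wnt1, Wnt3a, Wnt7b, Wnt8a, Wnt8b, Wnt9b, Wnt10b and Dkk4. Per transcript length, in the authors' TPM averaged over the cells of a pool, the highest means over the 11 pools were 114 for Sfrp5, 44.0 for Znrf3, 28.9 for Fzd2, 24.8 for Fzd7 and 12.5 for Axin2. Wnt5a, at 6.93, was the highest ligand. The 19 ligands together summed to 17.1 to 45.4 TPM in HM and 23.9 to 25.1 TPM in Ngn3Cre, against 19.7 to 27.6 TPM in HZ, each below the mean of Sfrp5 alone.

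**Figure D1:**
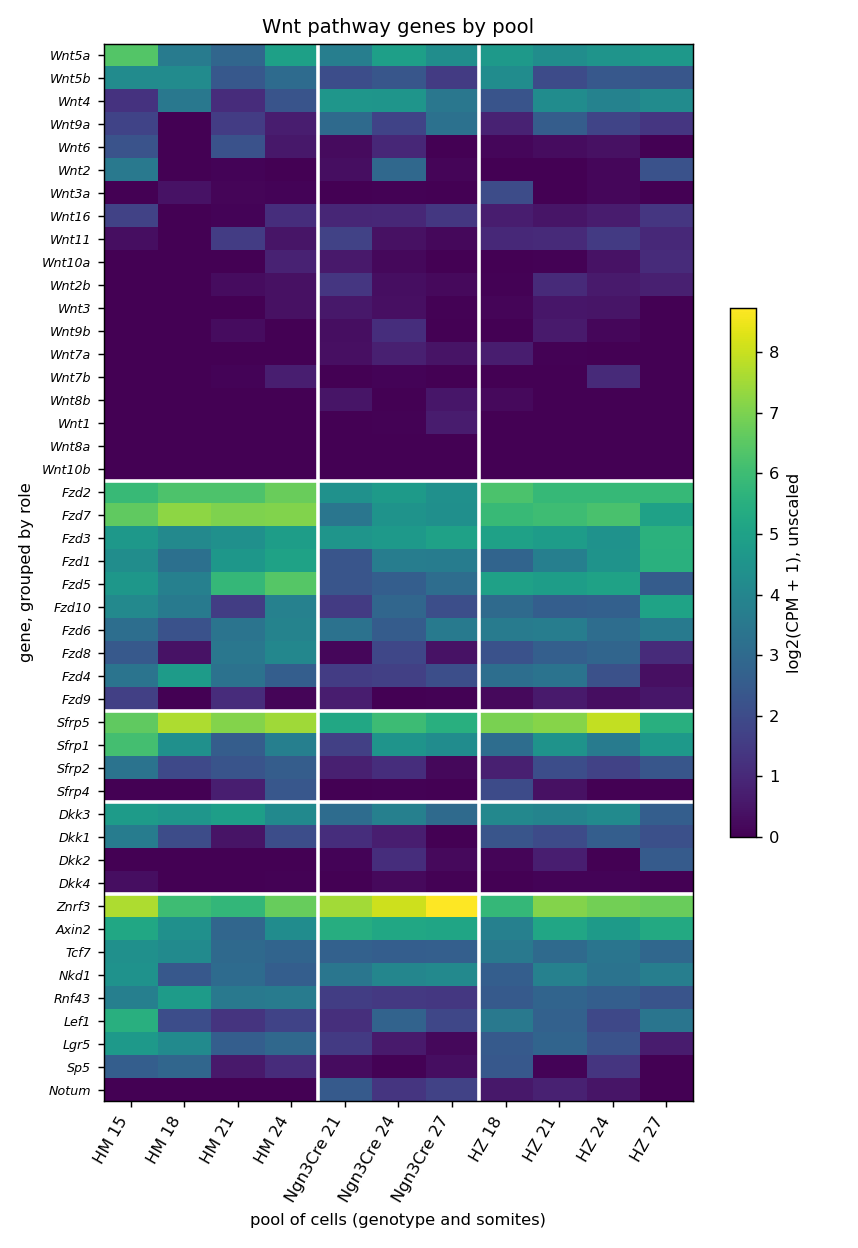
Levels of the 46 genes (rows, grouped by role and split by white lines) in the 11 pools of cells (columns, with genotype and somites), as log2(CPM + 1). Fzd2, Fzd7, Sfrp5 and Znrf3 are the brightest rows, most ligand rows are dark, and the Fzd2 and Fzd7 rows are darkest in the 3 Ngn3Cre pools.

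Across genotypes, edgeR called few single genes. In HM against HZ, none of the 38 tested genes passed an adjusted p of 0.05 by edgeR, where 1.38% of all 16478 genes did. 5 of the 38 had an unadjusted p under 0.05, where 2435 of all 16478 genes did, a similar share. Of 45 members fitted, DESeq2 called 4 (Fzd7 and Rnf43 higher, Dkk2 and Notum lower). Over all 21109 genes it called 1169 lower and 345 higher. Limma on mean CPM called Fzd7 higher of 31 members, with 466 lower and 71 higher of 14441 genes. Limma on mean TPM called none of 28 members, with 432 lower and 52 higher of 14098 genes. In Ngn3Cre against HZ, edgeR called 1 of the 38, Fzd2, as lower, where 0.267% of all genes were called. There 9 of the 38 had an unadjusted p under 0.05, where 1922 of all 16478 genes did. Of 45 members fitted, DESeq2 called 6 lower (Fzd1, Fzd2, Fzd5, Fzd7, Sfrp5 and Lgr5) and Znrf3 higher. Over all 20260 genes it called 736 lower and 303 higher. Limma on either scale called no member. Both comparisons share the HZ pools. The median log2 fold change of the 38 genes was -0.25 in HM against HZ (-0.08 over all genes tested) and -0.53 in Ngn3Cre against HZ (-0.02 over all genes tested).

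Groups of pools were also compared without a model, over the 3 stages that a pair of genotypes shares. All HM pools lay above all HZ pools for 3 of the 38 genes (Fzd2, Fzd7 and Rnf43), where 6.97% of all genes did so, and below them for 1 (Notum), where 10.6% did. All Ngn3Cre pools lay above all HZ pools for 3 (Wnt7a, Notum and Znrf3), where 11.2% of all genes did so, and below them for 7 (Fzd1, Fzd2, Fzd7, Sfrp2, Dkk1, Rnf43 and Tcf7), where 9.38% did. Against those shares of all genes, the first 3 counts are near or under the background and the last is above it.

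**Figure D2:**
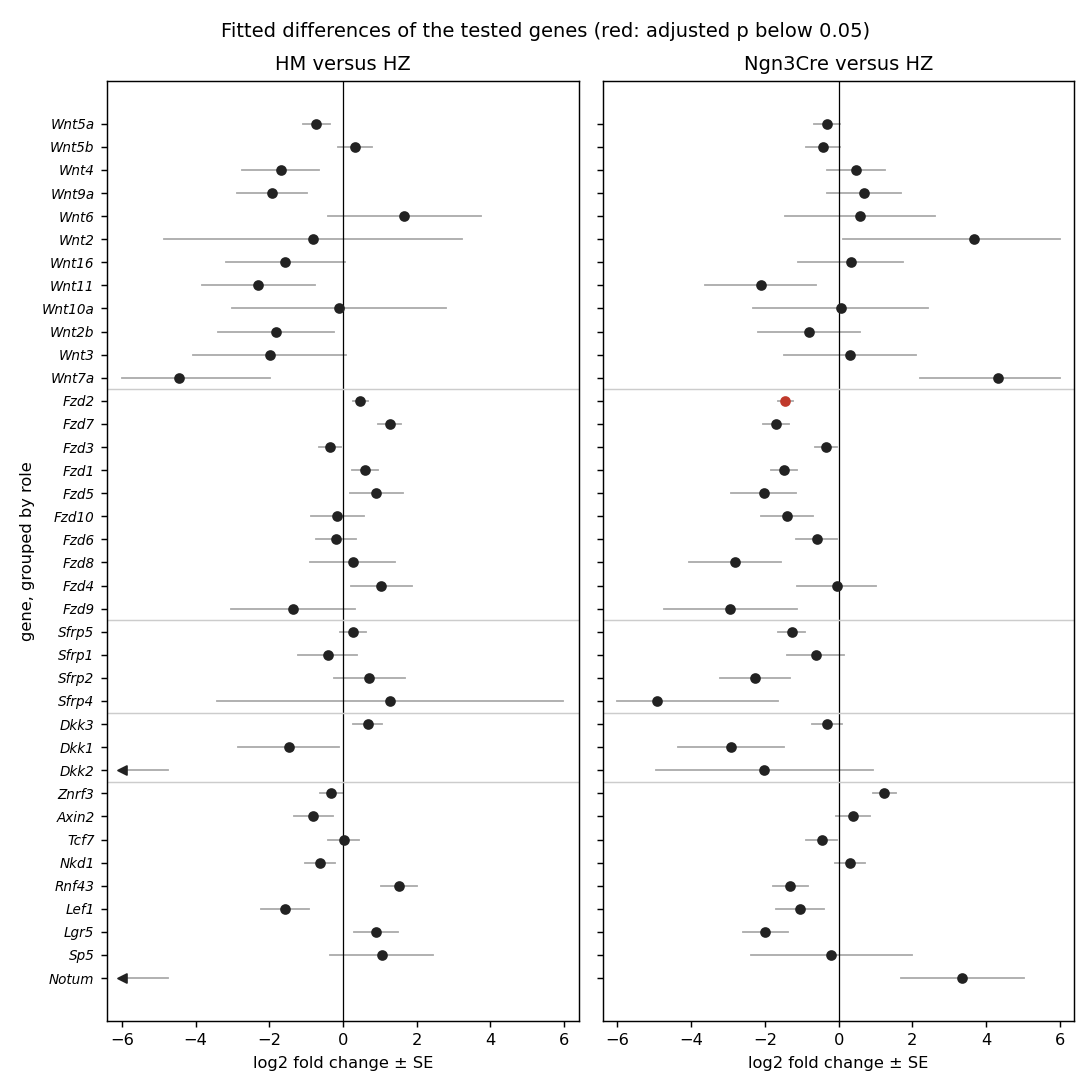
Fitted log2 fold changes ± SE (x axis) of the 38 tested genes (rows, grouped by role), in HM against HZ on the left and Ngn3Cre against HZ on the right. The left-pointing triangles mark Dkk2 and Notum, which had no read in the 4 tested HM pools and lie beyond the axis. All 10 frizzled genes lie left of 0 in Ngn3Cre against HZ, where Fzd2 is the gene in red.

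Among the ligands, Wnt5a, Wnt5b and Wnt4 had the highest levels, and the 3 behaved differently between pools. Wnt5a, which signals mainly without beta-catenin, had 83.1, 11.3, 6.37 and 30.5 CPM in HM at 15, 18, 21 and 24 somites, and 12.4, 29.7 and 18.4 CPM in Ngn3Cre at 21, 24 and 27 somites, against 24.7, 18.3, 21.6 and 24.3 CPM in HZ at 18, 21, 24 and 27 somites. The HM pools spanned the range of the others on both sides, and 50.1% of the Wnt5a reads of the highest of them came from 1 cell. Wnt5b had 17.4, 17.7, 4.32 and 7.28 CPM in HM and 3.20, 4.08 and 1.86 CPM in Ngn3Cre, against 17.9, 2.99, 4.23 and 4.05 CPM in HZ, in the same order of stages. Its 3 highest pools were those of 15 and 18 somites, and at 21 somites and later both HM pools lay above the Ngn3Cre and HZ pools, which overlapped.

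Wnt4, a ligand known from kidney and gonad development, had 1.45, 10.2, 1.15 and 3.87 CPM in HM and 22.9, 22.4 and 9.94 CPM in Ngn3Cre, against 3.76, 17.8, 13.5 and 17.7 CPM in HZ. At 21 and 24 somites the HM pools were lower than the HZ pools and at 18 somites higher, where all HM reads came from 1 cell. The fitted log2 fold change of Wnt4 was -1.70 ± 1.05 in HM against HZ (edgeR adjusted p = 0.495) and 0.48 ± 0.78 in Ngn3Cre against HZ (adjusted p = 0.887), so neither passed. Of the 12 ligands tested, 10 had a negative estimate in HM against HZ (median -1.63) and 8 a positive one in Ngn3Cre against HZ (median 0.32), with none called and most at a few CPM or less. In HM against HZ the ligand median was -0.18 and -0.22 by limma on mean CPM and mean TPM, which tested 8 and 5 ligands. Wnt7a had no read in HM, against 19 reads in HZ, of which 16 came from 1 cell of the 18-somite pool.

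All 10 frizzled receptors had lower estimates in Ngn3Cre than in HZ, of which Fzd2 passed the test, and Fzd7 was highest in HM without passing it. Fzd2 (chromosome 11, 102604396 to 102608058, plus strand, GENCODE vM21 on GRCm38) had 57.7, 78.1, 76.5 and 105.2 CPM in HM and 20.5, 25.7 and 19.9 CPM in Ngn3Cre, against 74.9, 55.9, 56.3 and 56.1 CPM in HZ, with the stages in the order given above. Every Ngn3Cre pool lay below every HZ pool and every HM pool, while HM and HZ overlapped when the 15-somite HM pool is counted. Its mean was 79.4 ± 19.5 CPM in HM (SD, n = 4) and 22.0 ± 3.18 CPM in Ngn3Cre (SD, n = 3), against 60.8 ± 9.38 CPM in HZ (SD, n = 4). The log2 fold change was -1.44 ± 0.20 in Ngn3Cre against HZ (edgeR adjusted p = 0.0385, lower at 3 of 3 shared stages) and 0.47 ± 0.20 in HM against HZ (adjusted p = 0.306).

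The Fzd2 call was close to the threshold and depended on single pools. Leaving out any of 8 of the 11 pools (HM at 21 or 24, each Ngn3Cre pool, HZ at 21, 24 or 27 somites) took it past 0.05, with adjusted p over the 11 fits of 0.0413 to 0.300 and log2 fold changes of -1.58 to -1.37. Without the clusters that carried endocrine or neural markers it was -0.85 (adjusted p = 0.377), and within endocrine-like cells alone -0.35 ± 0.29 (adjusted p = 0.963), a smaller estimate than over all cells.

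Fzd7 (chromosome 1, 59482424 to 59486955, plus strand, GENCODE vM21), a receptor known for roles in stem and progenitor cells, had 95.7, 151.5, 130.6 and 132.8 CPM in HM and 9.76, 21.4 and 19.3 CPM in Ngn3Cre, against 57.4, 64.2, 72.8 and 30.9 CPM in HZ. The 3 genotypes did not overlap, with HM highest and Ngn3Cre lowest. The means were 128 ± 23.3 CPM in HM (SD, n = 4) and 16.8 ± 6.21 CPM in Ngn3Cre (SD, n = 3), against 56.3 ± 18.1 CPM in HZ (SD, n = 4). The log2 fold change was 1.26 ± 0.32 in HM against HZ (edgeR adjusted p = 0.116) and -1.69 ± 0.35 in Ngn3Cre against HZ (adjusted p = 0.105), neither past 0.05. Its adjusted p over the alternative fits other than those leaving out a pool was 0.00450 to 1.0 in HM against HZ and 0.000132 to 0.963 in Ngn3Cre against HZ.

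**Figure D3:**
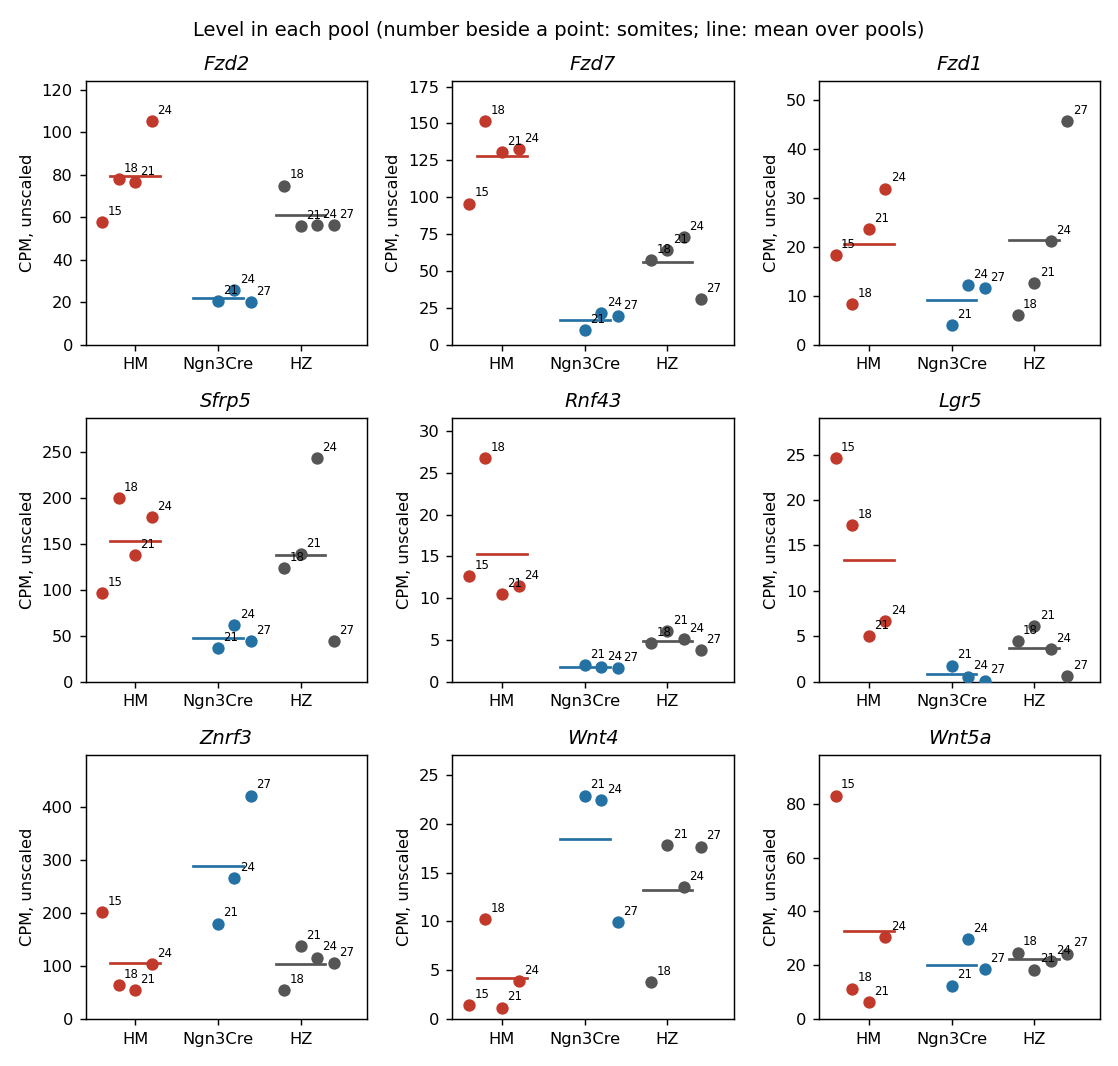
Unscaled CPM of 9 genes (panels) in each pool, with HM left, Ngn3Cre in the middle and HZ right. Points are pools labelled with their somites and lines are means over pools. Fzd2 and Fzd7 in the 3 Ngn3Cre pools sit below all HZ pools, and Znrf3 in Ngn3Cre sits above them.

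The other receptors had lower means than Fzd2 and Fzd7 in HM and HZ, while in Ngn3Cre the mean of Fzd3 was above both. Fzd3, known from axon guidance and planar polarity, had 24.2, 16.4, 19.9 and 28.3 CPM in HM and 22.5, 24.8 and 30.9 CPM in Ngn3Cre, against 31.2, 27.6, 20.8 and 46.3 CPM in HZ. Its Ngn3Cre pools lay inside the range of the HM and HZ pools. Fzd1 had 18.3, 8.24, 23.6 and 31.9 CPM in HM and 3.95, 12.1 and 11.6 CPM in Ngn3Cre, against 6.09, 12.5, 21.1 and 45.6 CPM in HZ. At each shared stage Ngn3Cre was below HZ (log2 fold change -1.49 ± 0.35, edgeR adjusted p = 0.137), and within HM and HZ the level was highest at the latest stage. Fzd5, a receptor of gut and eye epithelium, ranged over 12.9 to 85.7 CPM in HM and 3.97 to 7.67 CPM in Ngn3Cre, against 4.81 to 32.0 CPM in HZ, where the 27-somite pool was the low one. Fzd4, Fzd6, Fzd8, Fzd9 and Fzd10 had means of at most 12.4 CPM in each genotype.

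All 10 receptors had negative estimates in Ngn3Cre against HZ (median log2 fold change -1.47, with -0.02 over all genes tested), with 1 of them called. In HM against HZ, 6 of 10 estimates were positive (median 0.37). The summed receptor level was 101 to 173 TPM in HM and 34.9 to 46.0 TPM in Ngn3Cre, against 72.2 to 118 TPM in HZ. Without clusters with endocrine or neural markers, 8 of the 10 estimates in Ngn3Cre against HZ were negative (median -0.61), and 4 of the 10 in HM against HZ were positive (median -0.10). The Ngn3Cre side of that fit was the 24-somite pool alone.

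Of the Sfrp antagonists, Sfrp5 was the most abundant, and edgeR called none of the 4 in either comparison. Sfrp5 (chromosome 19, 42197971 to 42202252, minus strand, GENCODE vM21), known in foregut endoderm, had 96.2, 199.7, 138.3 and 179.4 CPM in HM and 36.9, 61.7 and 44.0 CPM in Ngn3Cre, against 123.8, 139.1, 243.3 and 44.2 CPM in HZ. The 27-somite HZ pool lay within the Ngn3Cre range and the other HZ pools above it. The log2 fold change in Ngn3Cre against HZ was -1.28 ± 0.37 (edgeR adjusted p = 0.224), and in HM against HZ 0.27 ± 0.34 (adjusted p = 0.771). In Ngn3Cre against HZ it was called lower by DESeq2 (-1.25, adjusted p = 0.0122) and by edgeR without the 27-somite Ngn3Cre pool (-1.82, adjusted p = 0.0478).

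Sfrp1 had 67.7, 20.0, 4.95 and 12.5 CPM in HM and 2.14, 22.0 and 17.9 CPM in Ngn3Cre, against 7.77, 21.6, 11.4 and 25.3 CPM in HZ. The high HM pool was the one of 15 somites, in which 2 of 16 cells were mesenchyme-like and the summed level of 10 mesenchyme markers was 314 CPM, with 35.7 to 289 CPM in the other 10 pools. Sfrp2 had 8.92, 2.78, 3.83 and 4.98 CPM in HM and 0.71, 1.20 and 0.13 CPM in Ngn3Cre, against 0.72, 3.21, 2.33 and 4.10 CPM in HZ, with an estimate of -2.27 ± 0.96 in Ngn3Cre against HZ (edgeR adjusted p = 0.406). Sfrp4 stayed under 4.14 CPM in every pool. All 4 estimates were negative in Ngn3Cre against HZ (median -1.77), but 3 of the 4 were positive without clusters with endocrine or neural markers (median 0.60). Of the Ngn3Cre pools, only that of 24 somites entered this fit, with 140 of its 155 cells left out. The cells kept included 3 mesenchyme-like and 6 mid- and hindgut-like ones.

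The Dkk genes were low. Dkk3, a divergent member whose role in Wnt signalling is less clear, was the highest, with 26.9, 22.7, 28.6 and 16.8 CPM in HM and 7.49, 12.9 and 7.05 CPM in Ngn3Cre, against 15.9, 14.3, 17.2 and 5.09 CPM in HZ. HM pools were mostly the highest, but the 24-somite HM pool lay just below the HZ pool of that stage. Dkk1, which blocks Lrp co-receptors, had 11.8, 3.04, 0.37 and 3.18 CPM in HM and 1.20, 0.68 and 0 CPM in Ngn3Cre, against 3.92, 3.02, 5.09 and 3.39 CPM in HZ. Every Ngn3Cre pool was below every HZ pool (log2 fold change -2.93 ± 1.43, edgeR adjusted p = 0.484). Dkk2 was without a read in the 4 tested HM pools and had 0.06, 1.19 and 0.18 CPM in Ngn3Cre, against 0.08, 0.65, 0 and 4.70 CPM in HZ. A floor of 3 reads over the group would put HM 34.6-fold below HZ (129 reads in HZ), if reads were independent. Of these 129 reads, 86 came from 1 cell of the HZ pool of 27 somites, a stage without a tested HM pool. Without that pool the value was 13.3-fold. In the whole series 10 cells had a Dkk2 read, so neither value is a bound on the difference.

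The target and feedback genes did not move together. Znrf3 and Rnf43 are related membrane ubiquitin ligases that remove frizzled receptors from the cell surface. In Ngn3Cre, Znrf3 had the higher and Rnf43 the lower estimate against HZ, neither past the threshold by edgeR. Znrf3 (chromosome 11, 5276324 to 5444847, minus strand, GENCODE vM21) had 202, 64.2, 54.1 and 104 CPM in HM and 180, 266 and 422 CPM in Ngn3Cre, against 55.1, 138, 116 and 105 CPM in HZ. Every Ngn3Cre pool was above every HZ pool, and the 15-somite HM pool fell among the Ngn3Cre pools. The means were 106 ± 67.5 CPM in HM (SD, n = 4) and 290 ± 123 CPM in Ngn3Cre (SD, n = 3), against 103 ± 35.1 CPM in HZ (SD, n = 4). The log2 fold change in Ngn3Cre against HZ was 1.24 ± 0.31 (edgeR adjusted p = 0.152), and in HM against HZ -0.31 ± 0.31 (adjusted p = 0.689). DESeq2 called it higher in Ngn3Cre than in HZ (1.26, adjusted p = 0.00282).

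Rnf43 (chromosome 11, 87662722 to 87735539, plus strand, GENCODE vM21) had 12.7, 26.7, 10.5 and 11.4 CPM in HM and 2.00, 1.74 and 1.64 CPM in Ngn3Cre, against 4.60, 6.09, 5.06 and 3.77 CPM in HZ. The genotypes did not overlap, with HM highest and Ngn3Cre lowest, as for Fzd7. The estimates were 1.52 ± 0.48 in HM against HZ (edgeR adjusted p = 0.201) and -1.31 ± 0.48 in Ngn3Cre against HZ (adjusted p = 0.318). Per length, Znrf3 averaged 44.0 TPM and Rnf43 4.58 TPM over the 11 pools.

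Axin2, the scaffold that is often read as a sign of beta-catenin activity, had 35.5, 19.9, 6.34 and 17.9 CPM in HM and 42.0, 36.0 and 33.7 CPM in Ngn3Cre, against 12.8, 34.8, 25.9 and 38.5 CPM in HZ. Ngn3Cre pools were within or just above the HZ range (log2 fold change 0.38 ± 0.46, edgeR adjusted p = 0.833). The HM pools of 21 and 24 somites were below the HZ pools of those stages and the HM pool of 18 somites above, with a fitted value of -0.80 ± 0.53 (adjusted p = 0.522). Tcf7, a Tcf transcription factor, had 19.6, 17.0, 6.97 and 6.00 CPM in HM and 5.55, 5.03 and 5.17 CPM in Ngn3Cre, against 10.6, 7.16, 9.59 and 6.51 CPM in HZ. All Ngn3Cre pools were lowest, by little.

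Lgr5, the R-spondin receptor that marks gut stem cells, had 24.6, 17.3, 5.06 and 6.65 CPM in HM and 1.79, 0.57 and 0.13 CPM in Ngn3Cre, against 4.48, 6.09, 3.60 and 0.60 CPM in HZ. Within each genotype the latest pool was below the earliest, and the 27-somite HZ pool lay inside the Ngn3Cre range. Lef1 had 44.0 CPM in the 15-somite HM pool and at most 10.5 CPM in the other 10 pools. The 15-somite pool has no tested HZ pool at its stage. At none of the shared stages was Lef1 higher in HM than in HZ (log2 fold change -1.57 ± 0.65, edgeR adjusted p = 0.305). Notum, an enzyme that removes the lipid of Wnts, had no read in HM and 4.52, 1.54 and 2.30 CPM in Ngn3Cre, against 0.48, 0.76, 0.40 and 0 CPM in HZ. On the floor used for Dkk2, HM would be 19.3-fold below HZ (72 reads in HZ), and 12.0-fold without the 21-somite HZ pool. Notum reads lay in 34 cells of the series, so these values are not bounds either. In the highest Ngn3Cre pool 41.9% of the reads came from 1 cell. Nkd1 and Sp5, which are also induced targets, averaged 9.31 and 3.29 CPM in HM and 13.7 and 0.16 CPM in Ngn3Cre, against 9.94 and 1.46 CPM in HZ, and neither passed. Over the 9 genes, 5 estimates were negative in each comparison (medians -0.31 in HM against HZ and -0.20 in Ngn3Cre against HZ).

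The rest of the pathway was read from 42 further genes (ligand processing, co-receptors, R-spondins, the destruction complex, Tcf factors and polarity genes), of which 39 were tested. In HM against HZ edgeR called 1 of them, Kremen1, as lower, where 1.38% of all genes were called. An unadjusted p under 0.05 was found for 11 of the 39 and for 2435 of all 16478 genes. Of the 42, DESeq2 called 8 lower and 1 higher (1169 lower and 345 higher of 21109 genes). Limma on mean CPM called 3 lower and 1 higher of 39 (466 and 71 of 14441 genes). Limma on mean TPM called Kremen1 lower and Wls higher (432 and 52 of 14098 genes). In Ngn3Cre against HZ edgeR called none, with 9 at an unadjusted p under 0.05 (1922 of 16478 genes). DESeq2 called 5 lower and 1 higher there (736 and 303 of 20260 genes), and limma called none on either scale. The median log2 fold change of the 39 was -0.14 in HM against HZ and -0.32 in Ngn3Cre against HZ. Kremen1 (chromosome 11, 5191552 to 5261558, minus strand, GENCODE vM21), a receptor with which Dkk1 takes Lrp6 off the cell surface, had 16.7, 6.68, 10.1 and 9.12 CPM in HM and 84.7, 51.1 and 54.9 CPM in Ngn3Cre, against 24.5, 45.0, 34.8 and 23.6 CPM in HZ. The genotypes did not overlap, with Ngn3Cre highest and HM lowest. The log2 fold change was -1.92 ± 0.24 in HM against HZ (edgeR adjusted p = 0.00735) and 0.90 ± 0.22 in Ngn3Cre against HZ (adjusted p = 0.157).

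Kremen1 was 61.7 to 118 CPM in the 4 endocrine-like clusters and 2.70 to 27.7 CPM in the other 9. With endocrine or neural clusters left out, its estimate in HM against HZ was -0.87 (adjusted p = 1.0), and the call was also lost without the 21-somite HZ pool (adjusted p = 0.0622), with all 14 pools (-1.23, adjusted p = 0.690) and with only the groups compared (-1.97, adjusted p = 0.0865). The genes with the highest level per length were Gsk3b (239.5 TPM), Ctnnb1 (232 TPM) and Tcf7l2 (122 TPM). Ctnnb1, which encodes beta-catenin, had 472, 484, 556 and 610.4 CPM in HM and 333, 384 and 382 CPM in Ngn3Cre, against 494, 509.8, 450.2 and 455 CPM in HZ, with estimates of 0.22 ± 0.14 in HM against HZ (adjusted p = 0.509) and -0.42 ± 0.14 in Ngn3Cre against HZ (adjusted p = 0.287). The kinase gene Gsk3b was 521 to 1853 CPM in HM and 708 to 1176 CPM in Ngn3Cre, against 954 to 1448 CPM in HZ, and the groups overlapped. At none of the shared stages was Gsk3b higher in HM than in HZ (log2 fold change -0.67 ± 0.17, edgeR adjusted p = 0.122). DESeq2 called it lower in HM. In Ngn3Cre against HZ its estimate was -0.37 ± 0.18 (edgeR adjusted p = 0.466). Tcf7l2, a nuclear partner of beta-catenin, had 519, 255, 313 and 474 CPM in HM and 119.6, 140.0 and 121 CPM in Ngn3Cre, against 377, 272, 486 and 171 CPM in HZ, with all Ngn3Cre pools lowest (log2 fold change -1.26 ± 0.26, edgeR adjusted p = 0.105).

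Along the somite stages, with genotype held as a factor, no member passed, as no gene of the 16478 did (0.0% called by edgeR). 4 of the 38 tested members had an unadjusted p under 0.05, where 1377 of all 16478 genes did. DESeq2 called Lgr5 as lower and Fzd1 as higher at later stages. Over all 16924 genes it called 159 lower and 196 higher. Limma called no member on either scale. Lgr5 changed by -0.33 ± 0.08 on the log2 scale per somite (edgeR adjusted p = 0.295), Wnt5b by -0.21 ± 0.07 (0.457), Tcf7 by -0.13 ± 0.05 (0.573) and Fzd1 by 0.20 ± 0.06 (0.333). All 9 target and feedback genes had negative slopes (median -0.13), with 0.00 as the median over all genes tested, and 8 of 10 receptors had positive ones. In limma on mean CPM over cells, which weighs each cell alike, 6 of the 9 slopes were negative (median -0.05), and 6 of 9 were negative without the 15-somite HM pool (median -0.09). With all 14 pools 5 of 10 receptor slopes were positive. Within endocrine-like clusters 5 of 8 target slopes were positive (median 0.08) and 7 of 10 receptor slopes negative (median -0.12). Slopes were also set against each other, HM minus HZ, over the 8 pools of these genotypes, and 0 of 14648 genes passed (edgeR; 1086 at an unadjusted p under 0.05), with the lowest p among the members for Sfrp1 and Fzd5 (adjusted p = 0.659 each).

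The cells were grouped into 13 clusters on genes other than the 46, so levels of the members across clusters are a description of where the transcripts lay. Fzd7 and Fzd2 were low in the 4 endocrine-like clusters, at 1.95 to 6.37 and 9.38 to 30.9 CPM. In the pancreatic progenitor-like clusters they were at 121 and 170 CPM for Fzd7 and 106 and 121 CPM for Fzd2. An unnamed cluster of 75 cells led by Clgn, Osr2 and Sycn (49 HM, 0 Ngn3Cre and 26 HZ cells) was at a like level, with 152 CPM of Fzd7 and 109 CPM of Fzd2. Fzd5 was highest in the same clusters (68.2 to 80.8 CPM), and Fzd10 and Fzd3 were highest in a small neural and neural crest-like cluster led by Rgs13 and Fgf10 (86.7 and 85.6 CPM, 20 cells).

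Ligands were spread over different cells. Wnt4 was highest in the endocrine-like clusters led by Gcg (31.6 CPM) and by Fev (29.4 CPM) and in the progenitor-like cluster of 62 cells (28.1 CPM). Wnt5a was highest in mesenchyme-like (85.6 CPM), mid- and hindgut-like (74.0 CPM) and Ghrl-led endocrine-like cells (72.6 CPM), and was 2.61 to 7.55 CPM in the other 3 endocrine-like clusters. Wnt2 was at 51.2 CPM in the 13 mesenchyme-like cells, with 54.4% of it in 1 cell, and at most 0.16 CPM in the other 12 clusters.

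Sfrp5 was highest in the progenitor-like clusters (440.2 and 339 CPM), followed by the mid- and hindgut-like cluster (175 CPM) and 1 endocrine-like cluster (171 CPM), while Sfrp1 was highest in mesenchyme-like cells (228 CPM). Lef1 was at 40.6 CPM in mesenchyme-like and 34.1 CPM in mid- and hindgut-like cells and at most 4.51 CPM elsewhere, and Sp5 was highest in mid- and hindgut-like cells (7.70 CPM). Znrf3 was at 143 to 395 CPM in the endocrine-like clusters, with the Gcg-led cluster highest, and at 72.8 and 94.2 CPM in the progenitor-like clusters. Axin2 was at 24.2 to 68.1 CPM in the endocrine-like clusters and at 17.2 and 29.8 CPM in the progenitor-like ones, and Lgr5 and Rnf43 were at 10.5 to 12.4 and 7.70 to 14.9 CPM in the progenitor-like and Osr2-led clusters.

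**Figure D4:**
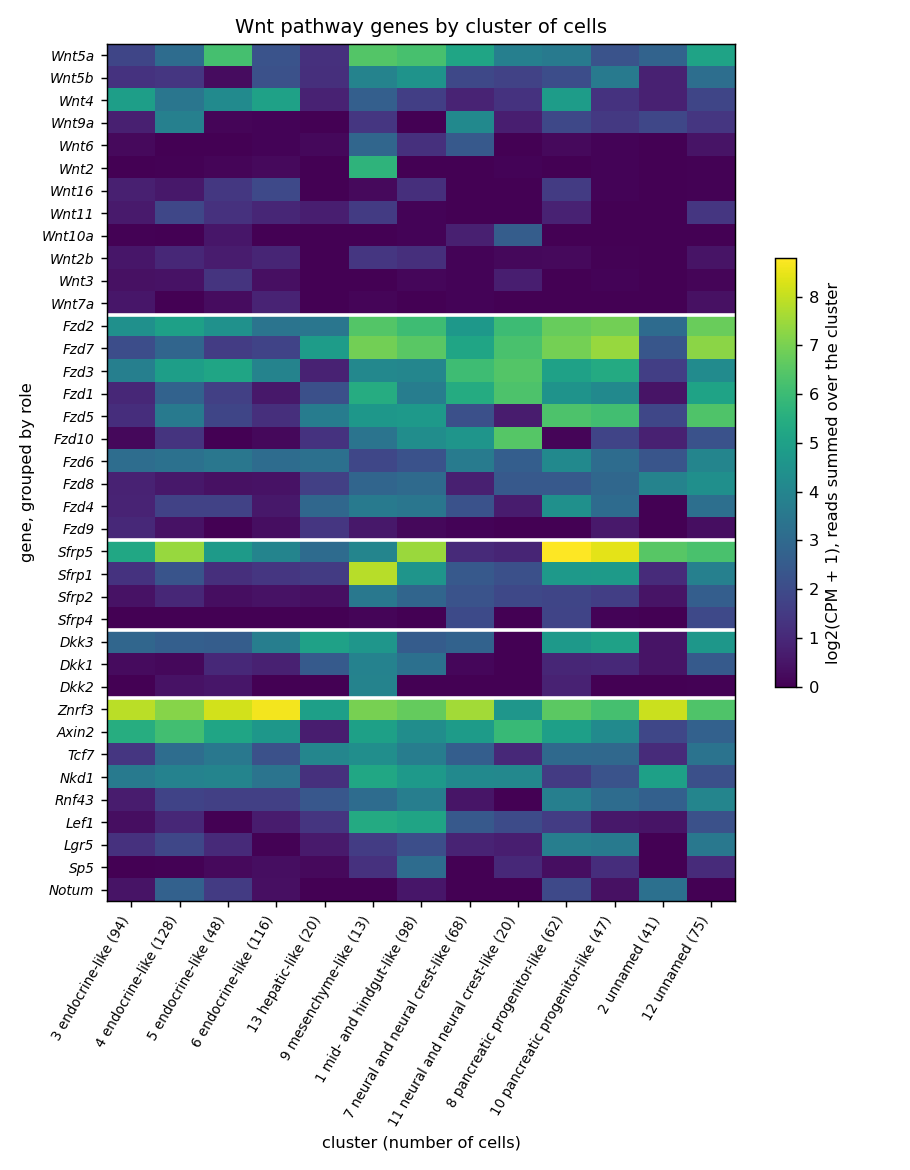
Levels of the 38 tested genes (rows, grouped by role) in the 13 clusters (columns, with the number of cells), as log2(CPM + 1) of the reads summed over a cluster. Fzd7, Fzd2, Fzd5 and Sfrp5 are bright in the pancreatic progenitor-like clusters, and Znrf3 is bright in the endocrine-like clusters and in the unnamed cluster of 41 cells.

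Within a class of cells, the genotypes could be compared at the same stages. In endocrine-like cells Fzd2 had 15.6, 18.6 and 14.2 CPM in Ngn3Cre at 21, 24 and 27 somites, against 46.9, 22.7, 17.5 and 20.2 CPM in HZ at 18 to 27 somites, and the groups overlapped. Fzd7 had 3.46, 2.23 and 3.61 CPM in Ngn3Cre, against 1.90, 4.29, 4.42 and 6.74 CPM in HZ. Fzd7 was thus low in these cells in either genotype, and Fzd2 was lower than over all cells, least so in HZ at 18 somites (46.9 CPM). No difference between Ngn3Cre and HZ endocrine-like cells passed for any of 14576 genes (edgeR, 782 at an unadjusted p under 0.05).

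Sfrp5 had 22.3, 30.8 and 25.9 CPM in endocrine-like Ngn3Cre cells, against 180, 146, 157 and 26.2 CPM in endocrine-like HZ cells, and Znrf3 had 192, 309.8 and 503 CPM, against 120.3, 232, 113 and 175 CPM. The log2 fold changes within this class were -1.78 for Sfrp5 (adjusted p = 0.736) and 0.89 for Znrf3 (adjusted p = 0.909). The genotypes filled the class from different clusters: the Gcg-led cluster held 96 Ngn3Cre and 19 HZ cells, and the cluster with 171 CPM of Sfrp5 held 45 Ngn3Cre and 81 HZ cells.

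In pancreatic progenitor-like cells, where both GFP genotypes were present, Fzd7 had 129, 259.6, 223 and 132 CPM in HM at 15, 18, 21 and 24 somites, against 56.4, 93.1, 170.4 and 111 CPM in HZ at the same stages, from 5 to 21 cells each. HM was above HZ at each of the 4 stages, by a varying amount, and the ranges overlapped. Fzd2 had 65.9, 124, 144 and 127 CPM in HM, against 117, 121, 114 and 109 CPM in HZ, with HM the lower at 15 somites and the higher at the others. With the endocrine-like, neural and similarly marked clusters left out, HM against HZ gave a log2 fold change of 0.38 for Fzd7 and -0.03 for Fzd2.

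**Figure D5:**
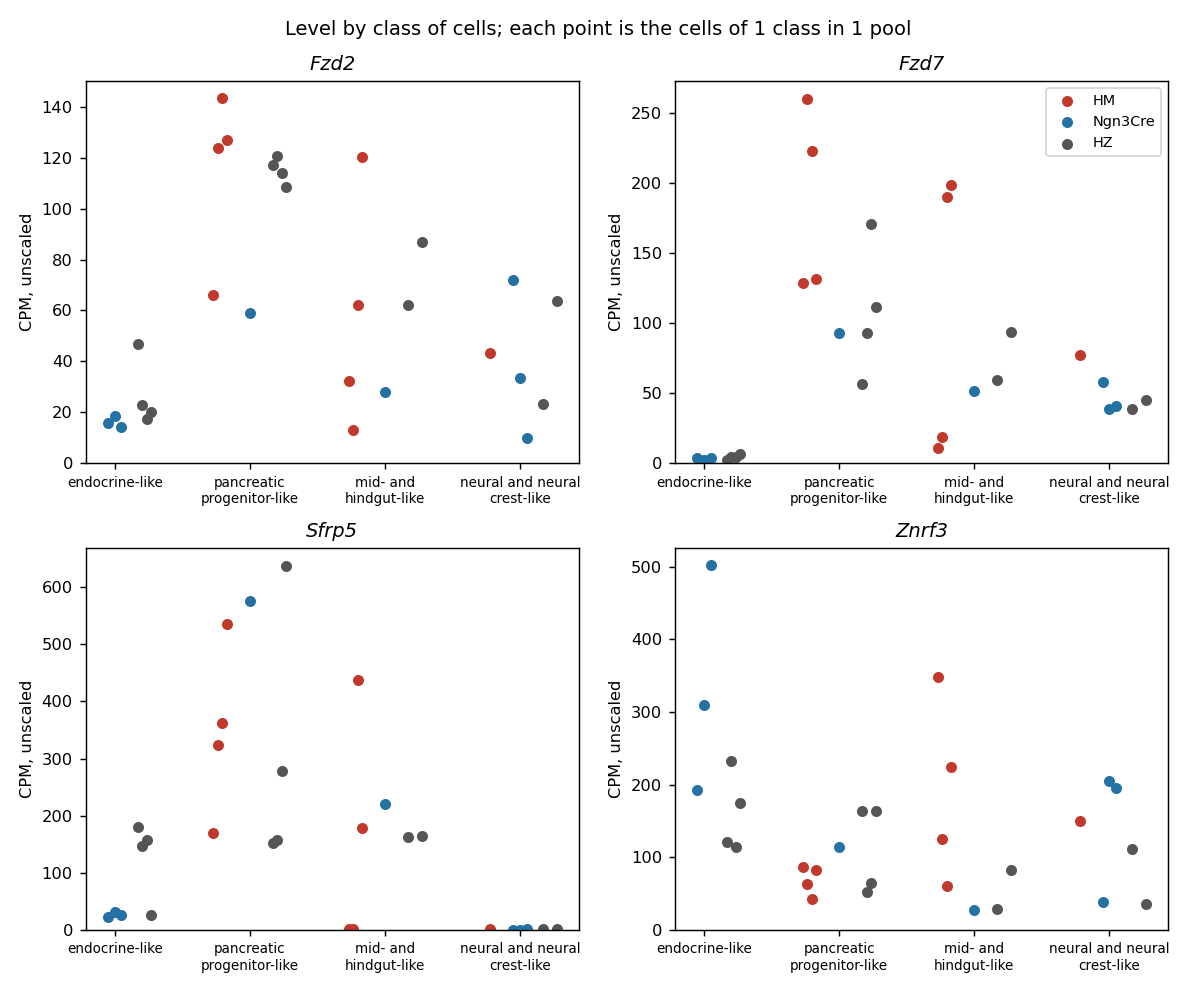
Unscaled CPM of Fzd2, Fzd7, Sfrp5 and Znrf3 (panels) by class of cells (x axis). Each point is the cells of a class in 1 pool, in red for HM, blue for Ngn3Cre and grey for HZ. Fzd7 is near 0 in all endocrine-like points (at most 6.74 CPM) and at 56.4 CPM or more in all pancreatic progenitor-like points.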

How the data were processed

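The authors deposited whole-number read counts per gene for 830 cells, and TPM values of those cells in a second table. The tools named in the submitters' processing notes are HISAT2 2.1.0, Trimmomatic 0.39 and FastQC 0.11.9, and the builds GRCm38 and mm10. The counter, the annotation and the use of strand or molecular identifiers were not given in the sources used here, so reads of overlapping genes cannot be separated. Cells held 1400 to 2525083 reads (median 452597), and all cells were used; no doublet caller was run.

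Since the labels name no embryo, the counts of all cells that share genotype and stage were added up. Pools of at least 10 cells (11 of 14) were fitted across all genes with edgeR 4.0.16 (R 4.3.3): TMM scaling (factors 0.909 to 1.04), edgeR's filter on low counts, a quasi-likelihood test with genotype and stage as factors or with genotype and a slope per somite, and Benjamini-Hochberg adjustment at 0.05. Stages serve as repeats, so p-values measure the spread of a difference between stage pools. HM and HZ share 18, 21 and 24 somites, and Ngn3Cre and HZ share 21, 24 and 27. The HM pool of 15 somites is alone at its stage and carries no weight in the genotype contrasts. Alternatives in method were DESeq2 1.42.0, RLE scaling, no filter, and limma 3.58.1 on log2(x + 1), where x was the mean CPM or mean TPM over cells. Alternatives in data were deep cells only (at least 2000 genes and 100000 reads), all 14 pools, subsets of clusters, the compared groups alone, and leaving out each pool. Subsets of clusters were fitted on the pools that kept at least 10 cells. The fits were tested on simulated data. Clusters (scanpy 1.11.5, 2000 variable genes without the members, 30 principal components, 15 neighbours, resolution 1.0) were named "-like" from marker lists, needing at least 3 markers raised 2.0-fold, more than of any other list, with 1 or more among the leading genes, and were left unnamed where reads per cell were far below those of their pools and no marker was among the 10 leading genes. Gene positions are from GENCODE vM21 and upstream sequences from RefSeq.

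The members and lists were chosen with earlier results of these data known. Members past 0.05, and the 3 of each role with the highest mean TPM, are given in every pool, other members in part or as ranges, and of the pathway list those past 0.05 and the 3 highest in TPM. Members described in every pool beyond this rule (Fzd1, Rnf43, Lgr5 and Notum) were chosen after their values were seen.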

Additional observations from a re-analysis of the deposited data

Results flagged for a closer look

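Within the 4 pools of a genotype, 3 values stood far from the others by Dixon's test at 95%, which flags about 1 in 20 groups by chance. All 3 were HZ pools. At 18 somites, Wnt5b was at 17.9 CPM and Fzd2 at 74.9 CPM, above the HZ pools of later stages. At 27 somites, Dkk2 was at 4.70 CPM, all of it from 1 cell.

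The 3 pools of 3 to 5 cells were in no test, and in them 10 values, each of at least 10 reads, lay above all 11 pools that were tested. The HM pool of 27 somites (4 cells) had 11.9 CPM of Wnt16, 369.5 CPM of Sfrp5, 28.3 CPM of Lgr5 and 26.1 CPM of Tcf7. The Ngn3Cre pool of 18 somites (3 cells) had 39.5 CPM of Wnt9a. The HZ pool of 15 somites (5 cells, all pancreatic progenitor-like) had 117 CPM of Fzd2, 39.1 CPM of Fzd4, 36.5 CPM of Dkk3, 42.5 CPM of Axin2 and 27.8 CPM of Tcf7. No error can be given for pools of so few cells.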

How the results depend on the processing

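No paired analysis was possible because the numbers in the labels count cells and the pools tested carry none; stage was a factor of the model, so genotypes were compared within stages. Of the results of single genes under the alternatives, 866 kept direction and side of the threshold, 18 lost a call, 23 gained one and 50 reversed. The cause was not tested. Restricting to endocrine-like clusters, leaving out the mesenchyme-like cluster and the slope difference were chosen after seeing the data.

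The number of members called lower in Ngn3Cre against HZ (1) was 2 with no filter and 6 by DESeq2. Those settings called 99 of 21512 and 736 of 20260 genes lower. The member count was 0 by limma on mean CPM or mean TPM and with all 14 pools. It was also 0 with only the groups compared and in endocrine-like clusters only. Leaving out 1 pool gave 0 to 2. Without clusters with endocrine or neural markers only the 24-somite Ngn3Cre pool entered, and no count is given. DESeq2 called 1 member higher there, 2 lower and 2 higher in HM against HZ, and 1 lower and 1 higher along the stages. Limma on mean CPM called 1 member higher in HM against HZ.

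In HM against HZ, estimates of the other sign were Wnt5a 0.57 and Sfrp1 0.10 with all 14 pools; Sfrp1 0.13 and Tcf7 -0.049 by limma on mean CPM; Sfrp1 0.11 and Tcf7 -0.11 by limma on mean TPM; Sfrp1 0.018 without the mesenchyme-like cluster; and, without clusters with endocrine or neural markers, Wnt5b -0.079, Fzd2 -0.031, Sfrp5 -0.017, Dkk3 -0.019, Tcf7 -0.16 and Znrf3 0.081. Leaving out 1 pool gave -1.20 to 0.83 for Sfrp1, -0.29 to 0.28 for Tcf7 and -0.55 to 0.11 for Znrf3.

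In Ngn3Cre against HZ they were Wnt4 -0.040 and Wnt5a 0.40 with all 14 pools, and Wnt5a 0.35 by limma on mean CPM and 0.30 on mean TPM. Without clusters with endocrine or neural markers, where only the 24-somite Ngn3Cre pool entered, they were Wnt5a 0.49, Wnt5b 0.91, Sfrp1 2.72, Sfrp2 1.11, Sfrp5 0.085, Dkk2 8.23, Dkk3 0.012, Tcf7 0.89, Znrf3 -0.31, Kremen1 -0.64 and Wls 0.13. In endocrine-like clusters only they were Wnt4 -0.39, Wnt5a 0.93, Wnt5b 1.01, Fzd3 0.0019, Dkk3 0.24, Axin2 -0.050 and Wls 0.38, and for the slope per somite Fzd1 -0.20 and Tcf7 0.079. Leaving out 1 pool gave -1.68 to 0.22 for Sfrp1, -3.86 to 1.20 for Dkk2 and -0.65 to 0.10 for Dkk3.

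Depth limits the low genes: most ligands, Dkk2 and Notum rest on reads of a few cells.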

Other observations

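Among the further pathway genes, 5 are described here that were chosen after their values were seen. The main edgeR fit called none of them, while in HM against HZ both DESeq2 and limma on mean CPM called Celsr2 and Celsr3 lower and Wls higher. In that comparison edgeR called Celsr2 and Celsr3 lower without the 24-somite HM pool, and Wls higher without either 18-somite pool. In Ngn3Cre against HZ, DESeq2 called Lgr4 and Wls lower. There edgeR called Lgr4 lower when the 27-somite pool of Ngn3Cre or of HZ was left out. Other polarity genes of the list differed less in HM against HZ, with log2 fold changes of -0.85 for Vangl1, -0.05 for Vangl2, -0.23 for Prickle2 and -0.48 for Celsr1. Celsr3, an adhesion receptor of planar polarity and neurons, had 1.81, 0, 0.84 and 7.38 CPM in HM at 15, 18, 21 and 24 somites, and 47.9, 31.0 and 29.8 CPM in Ngn3Cre at 21, 24 and 27 somites, against 3.24, 17.2, 22.7 and 39.3 CPM in HZ at 18, 21, 24 and 27 somites (log2 fold change -3.30 ± 0.87 in HM against HZ, adjusted p = 0.132). Its relative Celsr2 had 22.2, 10.2, 8.46 and 30.7 CPM in HM and 107.2, 76.0 and 72.0 CPM in Ngn3Cre, against 37.2, 43.1, 55.7 and 51.4 CPM in HZ, and the 3 genotypes did not overlap (-1.64 ± 0.38 in HM against HZ, adjusted p = 0.0934). Prickle1, a cytoplasmic polarity protein, lay the other way, with 57.5, 104.7, 52.0 and 60.3 CPM in HM and 10.7, 13.5 and 11.0 CPM in Ngn3Cre, against 50.4, 37.0, 39.8 and 9.74 CPM in HZ.

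Wls, the carrier that brings Wnts to the cell surface, had 101.3, 89.0, 113.6 and 133.4 CPM in HM and 17.8, 27.7 and 35.9 CPM in Ngn3Cre, against 69.9, 48.8, 51.5 and 47.6 CPM in HZ, again without overlap. It was at 6.46 to 12.8 CPM in the 4 endocrine-like clusters and at 78.4 and 85.1 CPM in the pancreatic progenitor-like ones. Lgr4, an R-spondin receptor related to Lgr5, was 151 to 442 CPM in HM and 57.3 to 94.9 CPM in Ngn3Cre, against 64.1 to 336 CPM in HZ.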
